A study of Homo sapiens with 7 samples.

Results

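The aminoacyl-tRNA synthetase genes were followed in U937 cells, a human monocytic leukaemia line, with and without the PLZF/RARA fusion and the EZH2 inhibitor GSK126. The members are 36 gene symbols listed by name, 20 for cytosolic enzymes and 16 for mitochondrial enzymes, whose symbols end in 2. All 36 were found among the 26364 symbols of the count tables, 18 of them under an older symbol (AARS for AARS1), and all 36 had enough counts to be tested. The list was drawn up by name, without a cut on a measured value, but earlier results of these data were known when it was chosen.

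RNA was sequenced from 7 libraries in 3 groups. MT_mock held 3 libraries of the parental U937 MT cells. B412_mock held 2 libraries of U937 B412, a derivative that makes PLZF/RARA when zinc is present. B412_GSK126 held 2 libraries of B412 cells given zinc for 24 h and then 2.5 µM GSK126 with zinc for 96 h. Every group received 0.1 mM ZnSO4, the parental cells included, and a zinc pretreatment time is stated for B412 cells only. For B412_mock that time is also 24 h. No length of the mock step is given in the sample annotations used here. B412 is a single line and each of its libraries had zinc, so effects of the fusion and of the line cannot be told apart. The labels do not state that replicates were separate cultures, so the p-values reflect only how far these libraries scatter, and that scatter may be technical. In bulk RNA such as this, a change in the share of cells that express a gene and a change in RNA per cell cannot be told apart.

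Aminoacyl-tRNA synthetases join each amino acid to its tRNA, the step that supplies charged tRNA to the ribosome. Most amino acids have one enzyme for the cytosol and another, also encoded in the nucleus, for the mitochondrion. Several cytosolic enzymes sit together in a multisynthetase complex held by the scaffold proteins AIMP1, AIMP2 and EEF1E1. Genes of many cytosolic synthetases are known targets of ATF4, the transcription factor of the amino acid response, which binds the C/EBP-ATF response element. WARS, for tryptophan, is also known as an interferon-induced gene.

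Total counts lay between 12736244 and 14848130 per library, and the members took 0.496% to 0.741% of them. The libraries parted into 2 sets along the first principal component, computed without the members, which held 65.7% of the variance of log2 CPM. Set 1 was MT_mock replicates 1 and 2 with replicate 1 of each B412 group, and set 2 was MT_mock replicate 3 with replicate 2 of each B412 group, so each set held all 3 groups. Of 10 monocytic markers, 9 were tested, among them SPI1 at 84.7 to 135 CPM and CEBPA at 178 to 249 CPM, while CSF1R stayed at or below 0.61 CPM. The summed level of the 10 was 2150 to 6980 CPM in MT_mock, 1050 to 2650 in B412_mock and 1650 to 4730 in B412_GSK126. This sum largely follows MPO, at 503 to 5830 CPM over the libraries. CD4 was at 193 to 656 CPM, and each other monocytic marker stayed at or below 249 CPM. FCGR1A was at 0 to 2.68 CPM, LYZ at 10.6 to 38.9, ITGAM at 15.9 to 38.9, CD33 at 18.8 to 41.7 and CD68 at 7.93 to 61.3. The 10 markers of other cells summed to 1.21 to 5.3, 7.2 to 7.3 and 4.54 to 5.49 CPM in the same groups, and MS4A1, a B-cell marker, had no counts. MPO, a myeloid granule enzyme, fell in B412_mock against MT_mock (log2 difference -1.82, edgeR adjusted p = 0.000212) and in B412_GSK126 against MT_mock (-0.67, 0.0304), and so did CD68 (-1.63, 0.00662, and -2.51, 0.000677); their part in the synthetase values was not tested.

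Cytosolic synthetase transcripts were more abundant than mitochondrial ones in each of the 7 libraries. Levels are compared between genes per length, as CPM (counts scaled to a common library total, with TMM factors) per kb of the principal transcript. The median member stood at 76.8 CPM per kb among the cytosolic genes (range 31.9 to 235) and at 14.7 among the mitochondrial genes (3.05 to 36.7). Summed over each class, the cytosolic genes held 1720 ± 175 CPM per kb in MT_mock (SD, n = 3), 1850 ± 111 in B412_mock (SD, n = 2) and 1890 ± 124 in B412_GSK126 (SD, n = 2). The mitochondrial genes held 231 ± 22.9, 227 ± 22 and 241 ± 34.9 CPM per kb (SD, same n). These sums overlapped between the groups for both classes.

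The ratio of the cytosolic to the mitochondrial sum, per kb, was 6.94, 7.76 and 7.72 in the MT_mock libraries, 8.38 and 7.96 in B412_mock and 8.31 and 7.42 in B412_GSK126. The B412_mock libraries lay above all 3 MT_mock libraries in this ratio, and B412_GSK126 overlapped both other groups. No test was run on this summed value, since it pools chosen genes.

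GARS, the glycyl enzyme, was the most abundant member at 235 ± 22.1 CPM per kb (SD over the 7 libraries). YARS, the tyrosyl enzyme, followed at 198 ± 51.2, QARS, the glutaminyl enzyme, at 149 ± 25.5, and KARS, the lysyl enzyme, at 134 ± 21. GARS and KARS are each a single gene for both the cytosolic and the mitochondrial enzyme, so they belong in part to both classes. QARS and KARS differed by less than their spread over libraries. HARS, for histidine, was the lowest cytosolic member at 31.9 ± 3.09 CPM per kb.

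In CPM not divided by length, GARS was at 519, 565 and 647 in MT_mock, 648 and 628 in B412_mock and 694 and 629 in B412_GSK126. YARS was at 464, 442 and 804, then 585 and 846, then 572 and 772 CPM in the same order. QARS was at 390, 342 and 493, then 380 and 545, then 380 and 423 CPM. YARS and QARS were highest within each group in the set 2 library, and their groups overlapped; GARS varied least of the 3.

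Among mitochondrial members CARS2, for cysteine, stood at 36.7 ± 13.1 CPM per kb and IARS2, for isoleucine, at 34.7 ± 14.9, which do not differ beyond their spread. TARS2, for threonine, followed at 19.1 ± 2.68. The lowest were PARS2, for proline, at 3.48 ± 1.45 and MARS2, for methionine, at 3.05 ± 2.1 (SD over 7 libraries throughout). Undivided by length, CARS2 was at 101, 85.1 and 35.8 CPM in MT_mock, 73.6 and 47.8 in B412_mock and 90 and 49.6 in B412_GSK126, lowest in the set 2 library of each group. IARS2 went the other way, with 85.2, 85.4 and 210, then 84.8 and 170, then 78.9 and 150 CPM. TARS2 was at 56.2, 43.4 and 47.7, then 46.5 and 54.1, then 52.4 and 65.3 CPM, and its groups overlapped.

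For 13 amino acids both the cytosolic and the mitochondrial gene could be set side by side in the same library. In 12 of the 13 pairs the cytosolic gene was higher per kb in all 7 libraries, with median ratios over libraries between 1 and 38.1 for the 13. MARS exceeded MARS2 by 18.1 to 70.3 times and YARS exceeded YARS2 by 24.9 to 54.5 times. IARS and IARS2 were the exception: their ratio ran from 0.861 to 1.6 and was above 1 in 3 libraries.

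**Figure D1:**
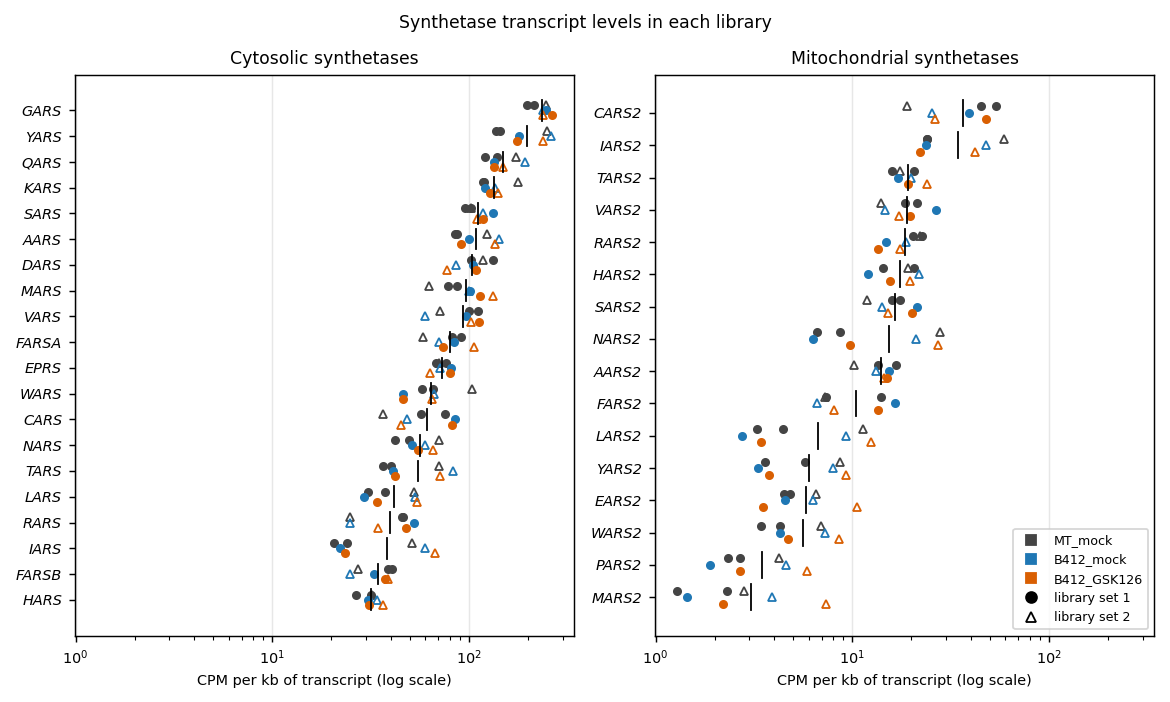
Transcript level of each cytosolic (left) and mitochondrial (right) synthetase gene in the 7 libraries, in CPM per kb on a log axis; colour is the group, symbol the library set and the black line the mean over libraries. GARS leads at 235 CPM per kb and MARS2 is lowest at 3.05; open triangles (set 2) and filled circles (set 1) lie apart for genes such as NARS2 and IARS.

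For most members, as for most tested genes, the difference between the library sets was larger in size than that between groups. This held for 31 of 36 members in B412_mock against MT_mock (79.1% of all tested genes), 29 of 36 in B412_GSK126 against B412_mock (83.9%) and 29 of 36 in B412_GSK126 against MT_mock (78.6%). The median size of the set difference was 0.52 on the log2 scale, against 0.87 for all tested genes, and it passed 2-fold for 7 of 36 members (44.1% of all tested genes). The 6 mitochondrial genes among these 7 were NARS2 (1.72 higher in set 2 on the log2 scale), LARS2 (1.71), MARS2 (1.23), YARS2, IARS2 and PARS2 (1.03), and the cytosolic gene was IARS (1.37). CARS2 (-0.99), CARS (-0.85) and FARS2 (-0.83) were the lowest in set 2 relative to set 1. No label names a batch, so each comparison below was fitted with the set as a term. Without that term edgeR's quasi-likelihood test called no gene of 13521 in any comparison, and 0 members had an unadjusted p under 0.05, against 2.54% of all tested genes in B412_mock against MT_mock, 0.237% in B412_GSK126 against B412_mock and 1.98% in B412_GSK126 against MT_mock.

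Promoter sequences show a feature that the list did not use and that differs between the classes. The C/EBP-ATF response element was searched as TGATGNAA on both strands of the window from 250 bases before to 50 after each start (RefSeq, GRCh38.p14). It was found in 7 of 16 cytosolic promoters and 1 of 14 mitochondrial ones, against 4.46% of 27305 genes with a promoter in the table. DARS, LARS, VARS, YARS, AARS2 and VARS2 had no entry. The matched sites are shown so that the core can be compared between genes; capitals mark the match, read on the strand that spells it.
AARS, plus strand of chr16:70289675-70289704: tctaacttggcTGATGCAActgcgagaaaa
CARS, plus strand of chr11:3057407-3057436: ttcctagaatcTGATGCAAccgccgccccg
GARS, minus strand of chr7:30594834-30594863: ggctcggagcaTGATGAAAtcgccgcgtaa
IARS, plus strand of chr9:92293692-92293721: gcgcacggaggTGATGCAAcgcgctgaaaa
MARS, minus strand of chr12:57488053-57488082: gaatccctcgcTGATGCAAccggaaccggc
NARS, minus strand of chr18:57621804-57621833: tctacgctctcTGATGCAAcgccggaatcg
TARS, minus strand of chr5:33440956-33440985: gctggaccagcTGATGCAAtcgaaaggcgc
YARS2, minus strand of chr12:32756076-32756105: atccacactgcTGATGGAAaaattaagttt

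All 8 sites share the core by construction of the search. The first matched base lay within 33 bases of the start in CARS (-2), GARS (-33), IARS (-13), MARS (-4), NARS (14) and TARS (2), counted in gene direction from 0 at the first transcribed base. The AARS and YARS2 matches lay farther upstream, at -187 and -197. The E-box CACGTG, the site of MYC and related factors, was found in 1 of 16 cytosolic promoters (IARS) and 3 of 14 mitochondrial ones (CARS2, EARS2 and MARS2), against 8.77% of all genes in the table. A match is a description of the letters only.

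The first comparison, B412_mock against MT_mock, asks how the PLZF/RARA line differs from the parental line. None of the 36 members passed the threshold, an adjusted p under 0.05 in edgeR with the set term, where 2.35% of all 13521 tested genes did (0.851% higher and 1.5% lower in B412_mock). DESeq2 and limma-voom with the same term also called 0 members, where they called 684 and 295 of all 13521 tested genes. At an unadjusted p under 0.05 there were 4 members, WARS, MARS, SARS and CARS, against 14.6% of all tested genes. The 95% interval of the difference lay within 2-fold in either direction for all 36 members (58.5% of all tested genes). It lay within 1.5-fold for 18 of the members, against 3235 of all 13521 tested genes.

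WARS had the lowest p of the members. Its level was 202, 178 and 321 CPM in MT_mock, against 143 and 206 CPM in B412_mock. The groups overlapped, since MT_mock replicate 3 and B412_mock replicate 2, both of set 2, were the higher libraries. The log2 difference was -0.51 ± 0.149 (SE, edgeR adjusted p = 0.115), and it was -0.41 within set 1 and -0.64 within set 2.

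MARS, the methionyl enzyme and a part of the multisynthetase complex, stood at 254, 226 and 183 CPM in MT_mock and at 295 and 291 CPM in B412_mock. Both B412_mock libraries lay above all MT_mock libraries. The log2 difference was 0.43 ± 0.163 (SE, edgeR adjusted p = 0.24). ARHGAP9, whose exons overlap MARS on the opposite strand, had a difference of like size, 0.45 ± 0.169 (SE, edgeR adjusted p = 0.226), while DDIT3, the other such gene, had one of -0.49 ± 0.231 (SE, edgeR adjusted p = 0.356). The part of either in the MARS counts was not tested.

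SARS, the seryl enzyme, was at 177, 189 and 191 CPM in MT_mock and at 246 and 219 CPM in B412_mock, again without overlap. Its log2 difference was 0.33 ± 0.14 (SE, edgeR adjusted p = 0.295). RARS2, the mitochondrial arginyl enzyme, was the only member whose B412_mock libraries lay below all MT_mock libraries, at 27.1 and 34.2 CPM against 37.2, 41.3 and 40.2. Its log2 difference of -0.42 ± 0.2 (SE) did not pass (edgeR adjusted p = 0.367). In all, 3 of 36 members had groups that did not overlap, against 11.8% of all tested genes (5.37% higher and 6.44% lower).

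The classes leaned in different directions by small amounts. Of 20 cytosolic members 14 had a positive log2 difference, with a median of 0.08, and of 16 mitochondrial members 6 did, with a median of -0.06, beside 48.9% positive and a median of -0.01 over all tested genes. The cytosolic median was positive within both sets (0.09 and 0.04). The mitochondrial median was -0.17 within set 1 and 0.07 within set 2, and 0.04 in the fit without the set term, so its sign depended on the set. Over both classes 23 of 36 members had the same sign within the sets, 63.9%, which equals the share of all tested genes, 63.9%.

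The 7 cytosolic members with the ATF4-type site, shown above, all had a positive log2 difference, from 0.00 (NARS) to 0.43 (MARS), with a median of 0.17. Within the sets their medians were 0.23 and 0.21, with IARS negative in set 1 and GARS and NARS negative in set 2. The 9 cytosolic members with a promoter entry and no match had 6 positive values and a median of 0.07. Over all tested genes with a match, 271 in number, the median was 0.02 and 52.4% were positive. YARS2, the mitochondrial member with the site, had a log2 difference of -0.35. No member with the site passed the test.

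Other genes of tRNA charging and of the amino acid response were counted from lists written with earlier results of these data known. The 3 scaffold genes of the multisynthetase complex showed small differences: AIMP1 0.01, AIMP2 0.04 and EEF1E1 -0.08 on the log2 scale, none past the threshold. The 8 synthetases of that complex had a median of 0.08 and no call.

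Mitochondria make glutaminyl-tRNA indirectly: EARS2 charges that tRNA with glutamate and the amidotransferase of QRSL1, GATB and GATC converts it. EARS2 had a log2 difference of -0.10 ± 0.278 (SE). QRSL1 had the largest of the accessory genes, -0.74 ± 0.199 (SE, edgeR adjusted p = 0.0863), with -0.48 within set 1 and -1.08 within set 2. GATB had -0.67 ± 0.249 (SE, edgeR adjusted p = 0.227), and GATC -0.01 ± 0.149 (SE). None of these passed the threshold.

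Of 19 tested genes of the ATF4 amino acid response 15 were positive and 3 were called, against 0.851% of all tested genes called higher. The 3 were all higher in B412_mock: PHGDH and PSAT1, of serine synthesis, and ASNS, asparagine synthetase. The 4 negative genes included DDIT3 (-0.49 ± 0.231, SE) and TRIB3 (-0.42 ± 0.171, SE), neither past the threshold. PSAT1 rose 1.73-fold (edgeR adjusted p = 0.0252). The list's median was 0.41, against 0.08 for the cytosolic synthetases.

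**Figure D2:**
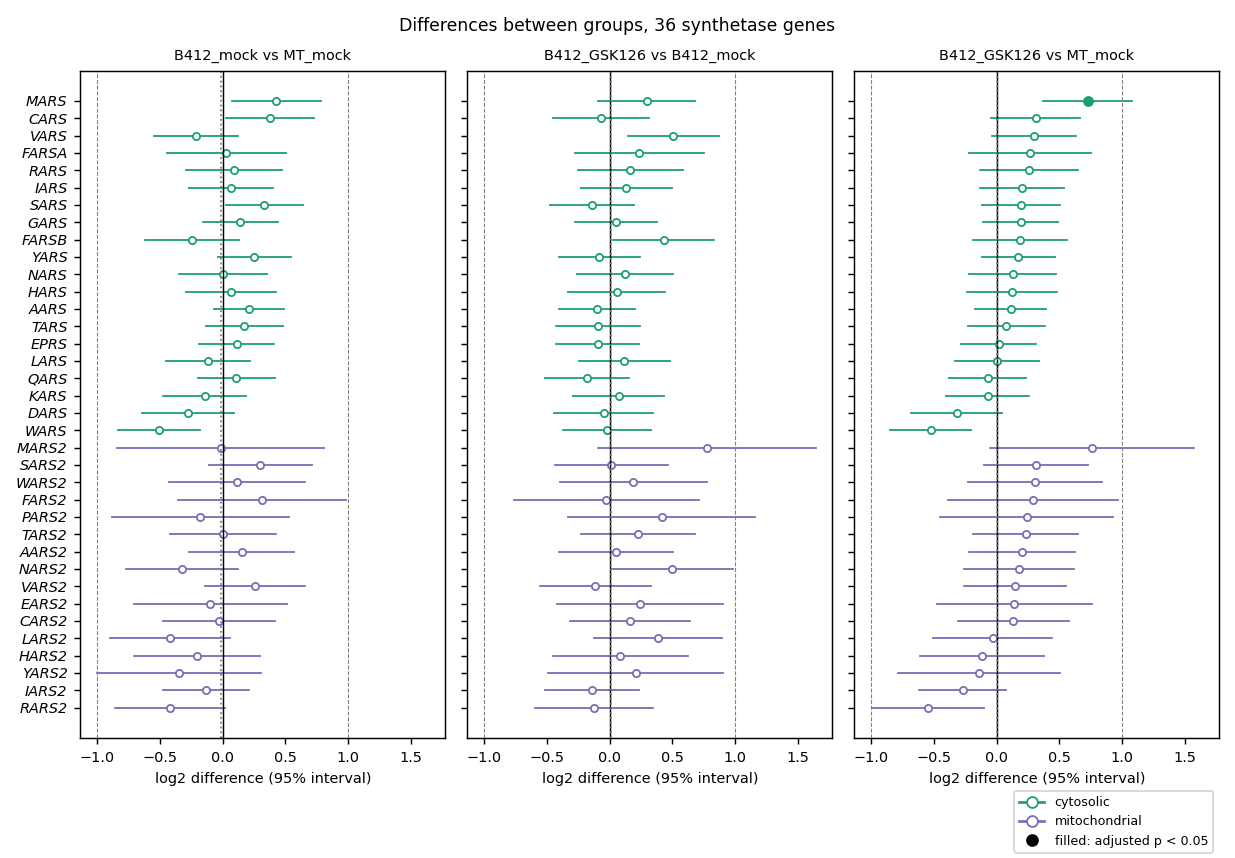
Log2 difference of each of the 36 genes with its 95% interval in the 3 comparisons, from edgeR with the library-set term; cytosolic genes are green, mitochondrial genes purple, dashed lines mark 2-fold, the dotted line is the median of all tested genes and a filled point passed the threshold. Most intervals span 0 and stay between the dashed lines; the single filled point is MARS in B412_GSK126 against MT_mock.

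The second comparison, B412_GSK126 against B412_mock, sets the fusion line with GSK126 against the same line without it. It shares the B412_mock libraries with the first. The mock step has no stated length, so time in zinc and in culture cannot be told apart from the drug. No member passed, and neither did any other gene in edgeR with the set term (0% of 13521 tested). DESeq2 and limma-voom with the set term called 0 members too, and 4 and 1 genes in all. At an unadjusted p under 0.05 there were 3 members, VARS, FARSB and NARS2, all higher with GSK126, against 3.43% of all tested genes. The 95% interval lay within 2-fold for 34 of 36 members (61.4% of all tested genes), the exceptions being the low-count genes MARS2 and PARS2.

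VARS, the valyl enzyme, had 416 and 256 CPM in B412_mock, against 485 and 441 CPM with GSK126. Both treated libraries were above both untreated ones. The log2 difference was 0.51 ± 0.166 (SE, edgeR adjusted p = 1), with 0.22 within set 1 and 0.78 within set 2.

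FARSB, the beta subunit of the cytosolic phenylalanyl enzyme, was at 111 and 83.3 CPM without and at 127 and 131 CPM with GSK126. Its log2 difference was 0.43 ± 0.185 (SE, edgeR adjusted p = 1). FARSA, the alpha subunit, was at 151 and 128 CPM without and at 133 and 192 CPM with the drug, so its groups overlapped. Its log2 difference of 0.24 ± 0.234 (SE) had opposite signs within the sets.

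NARS2, the mitochondrial asparaginyl enzyme, was at 15.8 and 53.1 CPM without and at 24.6 and 68.4 CPM with GSK126. The libraries of set 2 were the high ones in both groups, and the groups overlapped. The log2 difference was 0.50 ± 0.221 (SE, edgeR adjusted p = 1), with 0.63 within set 1 and 0.37 within set 2. MARS2 had a larger and less certain difference of 0.78 ± 0.397 (SE, edgeR adjusted p = 1), from 4.36 and 11.9 CPM to 6.62 and 22.2 CPM.

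Groups did not overlap for 4 of 36 members, against 12.6% of all tested genes (7.04% higher, 5.53% lower): FARSB, MARS and VARS were higher with GSK126 and SARS was lower. The same sign within both sets was seen for 25 of 36 members (56.8% of all tested genes). By class, 11 of 20 cytosolic members were positive with a median of 0.05, and 12 of 16 mitochondrial members with a median of 0.18, beside 51.8% and a median of 0.01 over all tested genes. The mitochondrial median was 0.16 within set 1 and 0.23 within set 2. The 7 cytosolic members with the ATF4-type site had a median of 0.05, and the 9 without it 0.06. YARS2 had a log2 difference of 0.21. The median of all 20 cytosolic members turned to -0.02 without B412_mock replicate 2 and to -0.08 without B412_GSK126 replicate 1.

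**Figure D3:**
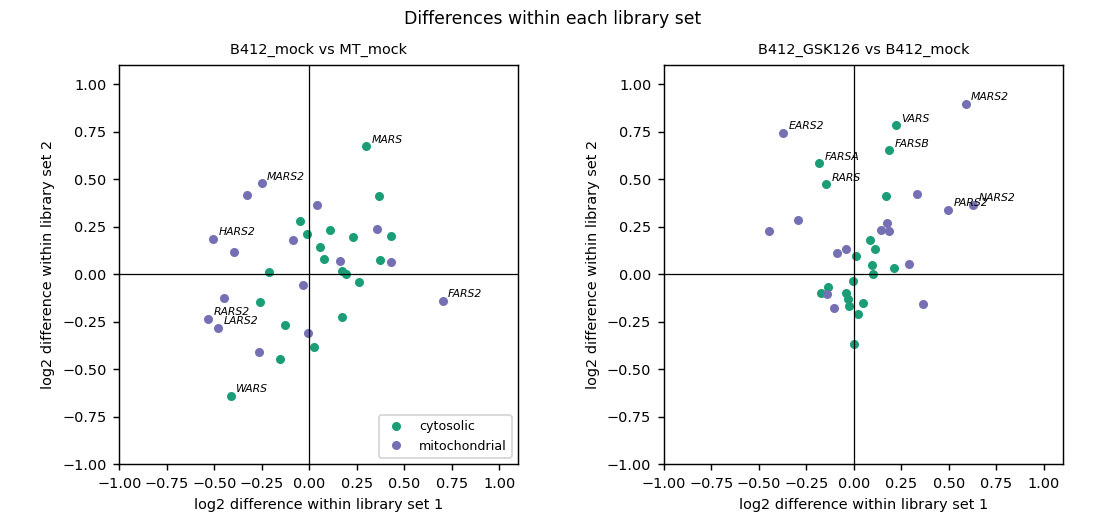
Log2 difference within library set 1 (horizontal) and within set 2 (vertical) for each member, for B412_mock against MT_mock (left) and B412_GSK126 against B412_mock (right), from log2 CPM. Members in the upper right and lower left quadrants have the same sign in both sets, 23 of 36 on the left and 25 of 36 on the right; on the left MARS lies at 0.30 and 0.67 and WARS at -0.41 and -0.64.

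The third comparison, B412_GSK126 against MT_mock, sets the treated fusion line against the parental line; it shares libraries with each of the other 2, so its values are no independent evidence. MARS rose 1.65-fold (95% interval 1.29 to 2.12) and was the only one of 36 members to pass, where 1.9% of all tested genes did (0.836% higher and 1.07% lower). At an unadjusted p under 0.05 there were 3 members, MARS, WARS and RARS2, against 15% of all tested genes, and the 95% interval lay within 2-fold for 34 of 36 members, all but MARS and MARS2 (57.5% of all tested genes). It was at 331 and 387 CPM in B412_GSK126 against 254, 226 and 183 CPM in MT_mock, that is 359 ± 39.4 (SD, n = 2) and 221 ± 35.8 CPM (SD, n = 3). Both treated libraries were above all parental ones, and the B412_mock libraries at 295 and 291 CPM lay between the other 2 groups.

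The log2 difference of MARS was 0.72 ± 0.164 (SE, edgeR adjusted p = 0.0468), with 0.47 within set 1 and 1.08 within set 2. The adjusted p lay close to the threshold. With the set term, DESeq2 and limma-voom called 604 and 318 of all 13521 tested genes in this comparison. MARS passed in DESeq2 (adjusted p = 0.00467) and limma-voom (adjusted p = 0.0334) with the set term and in edgeR without MT_mock replicate 1 (0.0182) or B412_GSK126 replicate 1 (0.0438). It did not pass without MT_mock replicate 2 (0.153) or 3 (0.24), without B412_mock replicate 1 (0.114) or 2 (0.11), or without B412_GSK126 replicate 2 (0.389), all edgeR adjusted p. Nor did it pass in edgeR without the set term (adjusted p = 1), with a replicate block in its place (log2 difference 0.58, adjusted p = 0.66), with set and replicate block together (0.45, adjusted p = 0.263) or with only the groups compared (adjusted p = 0.128).

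Exons of MARS overlap those of DDIT3 and ARHGAP9 on the opposite strand in GENCODE release 29, and the labels name no step that marks strand. In this comparison DDIT3, an ATF4-induced transcription factor, had a log2 difference of -0.60 ± 0.23 (SE, edgeR adjusted p = 0.237), opposite in sign to MARS, and ARHGAP9 one of 0.18 ± 0.168 (SE, edgeR adjusted p = 0.658). The part of either in the MARS counts was not tested.

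**Figure D4:**
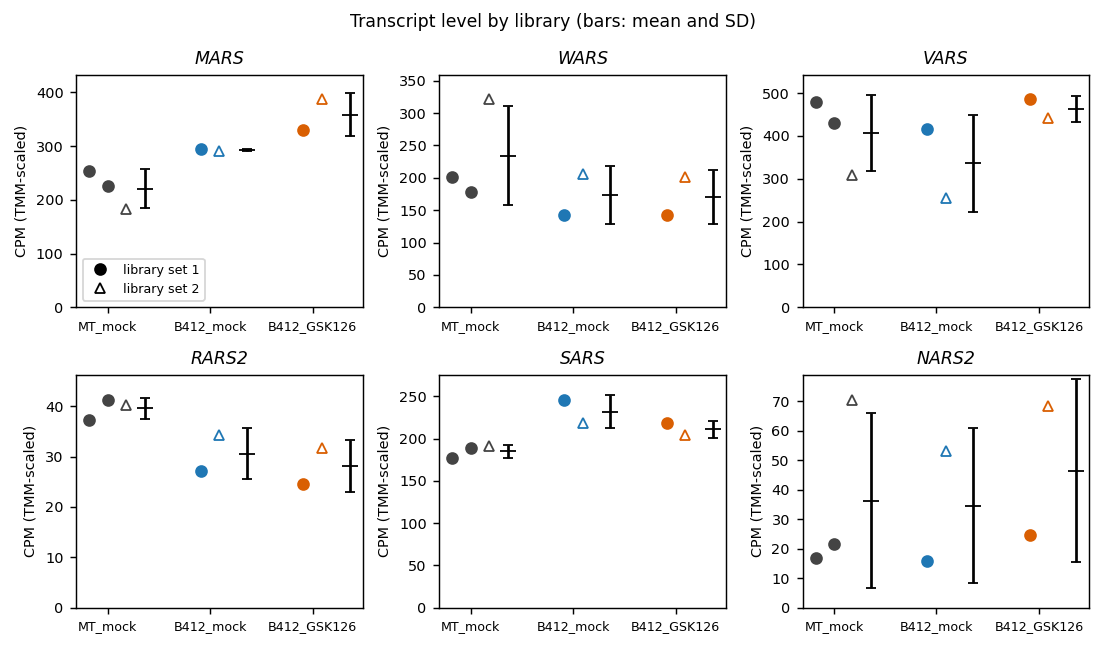
Level in every library of MARS, WARS, VARS, RARS2, SARS and NARS2, in TMM-scaled CPM from 0; circles are set 1, triangles set 2, and the bar beside each group is its mean and SD (n = 3 for MT_mock, n = 2 for the others). MARS is at 183 to 254 CPM in MT_mock and 331 to 387 CPM in B412_GSK126, while NARS2 parts by library set in every group.

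WARS stood at 142 and 201 CPM in B412_GSK126, close to its B412_mock values. The log2 difference to MT_mock was -0.52 ± 0.149 (SE, edgeR adjusted p = 0.113), with -0.42 within set 1 and -0.67 within set 2. DESeq2 with the set term called it (adjusted p = 0.0336) while edgeR and limma-voom (adjusted p = 0.0924) did not. RARS2 was at 24.5 and 31.8 CPM, below all MT_mock libraries, with a log2 difference of -0.54 ± 0.201 (SE, edgeR adjusted p = 0.221). SARS was at 218 and 204 CPM, above all MT_mock libraries, with a difference of 0.19 ± 0.141 (SE). Groups did not overlap for these 2 and MARS, 3 of 36 members, against 12% of all tested genes (6.13% higher and 5.88% lower). The sign was the same within both sets for 21 of 36 members, against 60.3% of all tested genes.

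Of 20 cytosolic members 16 were positive, with a median of 0.15, and of 16 mitochondrial members 11, with a median of 0.16, beside 50% and a median of 0.00 over all tested genes. The mitochondrial median was -0.01 within set 1 and 0.30 within set 2. The 7 cytosolic members with the ATF4-type site had a median of 0.19, all positive, with GARS (-0.04) and NARS (-0.09) negative within set 2. The 9 without a match had 6 positive values and a median of 0.13. Over the 271 tested genes with a match the median was 0.04 and 52.8% were positive. YARS2 had a log2 difference of -0.14.

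In the same comparison 4 of 19 ATF4 response genes were called, all higher, against 0.836% of all tested genes called higher. PSAT1 rose 2.21-fold (edgeR adjusted p = 0.00462), ASNS 1.94-fold (0.0138) and PHGDH 1.68-fold (0.0141). SESN2, a stress-induced regulator of growth signalling, rose 1.81-fold (edgeR adjusted p = 0.0335). Of the 19 genes 16 were positive and 3 negative, DDIT3 (-0.60) among the negative ones. Of 9 tested amino acid transporters SLC7A11, the cystine importer, was the only call and rose 2.3-fold (edgeR adjusted p = 0.0427). Of the 4 listed accessory genes of mitochondrial charging, 2 were positive and 2 negative, with a median of -0.14 and no call. The lowest p among them was that of QRSL1, which did not pass. QRSL1 had a log2 difference of -0.86 ± 0.201 (SE, edgeR adjusted p = 0.0532), with -0.77 within set 1 and -1.03 within set 2.

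HARS and HARS2, the cytosolic and mitochondrial histidyl genes, lie head to head, with starts 85 bases apart and promoter windows that share 184 of 300 bases on chromosome 5 (RefSeq, GRCh38.p14). HARS had log2 differences of 0.07 ± 0.164 (SE, B412_mock against MT_mock) and 0.06 ± 0.178 (SE, B412_GSK126 against B412_mock), and HARS2 of -0.20 ± 0.23 and 0.09 ± 0.245 (SE). None passed. HARS exceeded HARS2 per kb by 1.55 to 2.55 times across the 7 libraries.

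Exons of 11 members overlap another counted gene on the opposite strand, and those of HARS2 and VARS2 one on the same strand (GENCODE release 29). GENCODE also lists 14 pseudogenes named after members, and 0 of them are in the count tables, so reads they share with a member may be lost or assigned to it.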

How the data were processed

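RNA of 7 libraries was analysed. Per the labels' protocols, a SMART-Seq v3 kit gave the cDNA, which was sheared and made into libraries with a NEBNext Ultra DNA kit; no step that marks strand is named. The submitters' processing notes name hg19, Subread with featureCounts, and FastQC; for versions and annotation, the sources used here give none. The authors deposited a table for each group, with whole-number, unnormalized counts by gene symbol and a column for each library. Members and lists were chosen with earlier results of these data known, and so was the library-set term.

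Genes were kept by filterByExpr (minimum count 10, minimum total 15), which left 13521 of 26364, then TMM-scaled. The test was that of edgeR 4.0.16 under R 4.3.3 (robust quasi-likelihood F test, two-sided, group and library set, 7 libraries in 1 fit, 3 residual degrees of freedom). Benjamini-Hochberg adjustment ran over all tested genes, with a threshold of 0.05. The sets come from 13485 tested genes other than the members, by the sign of their first principal component in log2 CPM, with a prior count of 2. They come from the same libraries, so p-values may be too small. SE and 95% intervals were derived from the F statistic. CPM uses the counts in tested genes and the TMM factors. No molecular identifiers are named. The procedure was also run on simulated data, whose outcome is not given here. The library sets were fixed in that run, so it cannot show the effect of deriving them from the same libraries. DESeq2 1.42.0 and limma 3.58.1 were alternatives. Library values are given for called members, the 3 with the lowest p per comparison and the 3 most abundant of each class. Those of SARS and RARS2 in further comparisons, FARSA and MARS2 were added after values were seen. Genes outside the members were planned to be named only where called, so QRSL1 and other uncalled genes are additions. hg19 coordinates were not used; promoters are RefSeq's on GRCh38.p14, and lengths are those of GENCODE release 29 principal transcripts. Same-numbered libraries deviated from their group means with r = 0.664 (number 1) and -0.634 (number 2) for B412_mock and MT_mock. For the 2 B412 groups r was 0.847. MT_mock replicate 2 is in set 1 and B412_mock replicate 2 in set 2, and within B412 the numbers coincide with the sets. These values therefore cannot tell a pairing by replicate number from the library set.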

Additional observations from a re-analysis of the deposited data

How the results depend on the processing

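No member was called in B412_mock against MT_mock or in B412_GSK126 against B412_mock under any of 9 other settings or with any of 7 libraries left out (0 to 0 members). In B412_GSK126 against MT_mock the count of called members was 1 and became 0 without the library-set term, 0 with a replicate block in its place, 0 with set and replicate block together (MARS log2 difference 0.45, adjusted p = 0.263) and 0 when only the groups compared were fitted (adjusted p = 0.128). It was 2 in DESeq2, which added WARS, and 0 to 1 with a library left out. The replicate block changed no other call; B412 replicate numbers coincide with the sets. MARS had a log2 difference of 0.45 to 0.76 over the 9 settings and 0.52 to 0.97 with a library left out. The direction of MARS, WARS, SARS, VARS, FARSB, NARS2 and RARS2 was the same in each setting run in the comparison where they are among the 3 lowest p. The median of the mitochondrial members changed sign in B412_mock against MT_mock without the set term (0.04), with the replicate block (0.06) and without MT_mock replicate 1 (0.06), and in B412_GSK126 against MT_mock with set and replicate block (-0.05). Over all genes the 318, 0 and 257 calls of the 3 comparisons, in the order of the text, became 0, 0 and 0 without the set term or with the replicate block in its place, 943, 89 and 573 with both, 684, 4 and 604 in DESeq2, 881, 34 and 892 without a filter, 363, 14 and 102 with only the groups compared, and 33 to 587, 0 to 3 and 72 to 693 with a library left out. The intervals combine counting error and scatter between libraries, and the part of depth in them was not tested.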

Other observations

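Other lists of tRNA biology held no called gene in any of the 3 comparisons with the library-set term in edgeR. Of 13 genes of tRNA maturation and export 10 were positive in B412_mock against MT_mock (median log2 difference 0.19), 10 in B412_GSK126 against B412_mock (0.17) and 11 in B412_GSK126 against MT_mock (0.36). Without the set term these medians were 0.06, 0.14 and 0.27. Over all tested genes 48.9%, 51.8% and 50% were positive in the same order, with the set term. The 3 comparisons share libraries, so their counts are not independent. Of 12 mitochondrial translation factors 6, 8 and 6 were positive, with medians of 0.00, 0.17 and 0.05. The 4 genes of selenocysteine tRNA had medians of -0.14, 0.16 and 0.05. Across the 36 members the set difference had a Spearman correlation of 0.317 with transcript length and -0.204 with mean CPM, a description over genes that share the same libraries.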
